A study of Rattus norvegicus with 25 samples.

Results

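The miR-23, miR-27 and miR-24 family was examined in rat sperm smRNA as a contrast between its 2 paralogous gene clusters, miR-23a/27a/24-2 and miR-23b/27b/24-1. All rows of the miRNA count matrix named rno-miR-23a, 23b, 27a, 27b or 24, any arm, were taken, which gave 11 of 562 rows. Of these, 5 come from the 23a cluster alone and 5 from the 23b cluster alone, and rno-miR-24-3p comes from both. After a filter on low counts, 317 miRNAs were tested and 9 of the 11 rows were among them. The remaining rows, rno-miR-23a-5p and rno-miR-23b-5p, were at 0 in 22 and 21 of 25 libraries and reached counts of 2 and 5, so no level was computed for them.

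Sperm came from the cauda epididymis of adult Sprague-Dawley F0 males and was purified by 2 rounds of swim-up. F0_MOR males self-administered intravenous morphine (0.75 mg/kg per infusion, daily 3 h sessions) for 60 days, and F0_SAL males self-administered saline. Both groups were sampled when self-administration ended, whereas F0_ABS-MOR and F0_ABS-SAL males had the same exposures followed by 90 days of abstinence. There were 7 F0_SAL, 7 F0_MOR, 5 F0_ABS-SAL and 6 F0_ABS-MOR libraries, with 1032386 to 3203211 miRNA counts each. Abstinent males were also older at collection and further from behavioural testing, so these differences and abstinence cannot be told apart. The column names of the matrix do not spell out the collection timepoint and were matched to the groups by group size, and each library is called here by the letter in its column name. The labels describe the libraries as biological replicates. Every pair of libraries, 300 in all, differed beyond sampling noise (chi-square per degree of freedom of 39.8 or more).

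miRNAs silence messenger RNAs that pair with their seed, the bases near the 5′ end, so paralogs with 1 seed can share targets. Each hairpin can yield a product from its 5′ arm (5p) and its 3′ arm (3p), and usually 1 of them is kept as the main product. The miR-23, miR-27 and miR-24 hairpins lie close together in both clusters and are processed from a common primary transcript. The clusters are widely expressed in the body and are known for roles in endothelium, muscle and blood cells. In RefSeq annotation of rat assembly GRCr8, which is not the assembly used for the counts (rn6), the 23a cluster occupies chr19:40859455-40859843 on the minus strand, in the order Mir23a, Mir27a, Mir24-2 along the transcript. The 23b cluster occupies chr17:1818669-1819482, also on the minus strand, inside the span of the protein-coding gene Aopep.

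The mature sequences below are from RefSeq, which held 10 of the 11 members, and show why the copies of miR-23 and miR-27 are hard to tell apart while the 5p arms of miR-24 are easier. They are written 5′ to 3′ with the seed, bases 2 to 8, in capitals.
rno-miR-23a-3p: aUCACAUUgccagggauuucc
rno-miR-23b-3p: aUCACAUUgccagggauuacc
rno-miR-27a-3p: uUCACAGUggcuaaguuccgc
rno-miR-27b-3p: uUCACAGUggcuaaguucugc
rno-miR-24-3p: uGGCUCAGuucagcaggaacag
rno-miR-24-2-5p: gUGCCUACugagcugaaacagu
rno-miR-24-1-5p: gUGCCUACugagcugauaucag
rno-miR-27a-5p: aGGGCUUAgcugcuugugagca
rno-miR-27b-5p: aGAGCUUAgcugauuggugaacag

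Within each 3p pair the seed was the same, and no other rat miRNA in the RefSeq table carried it. With positions counted from 1 at the 5′ end and the base of the 23a cluster given first, miR-23a-3p and miR-23b-3p were identical at 20 of 21 positions and differed by U19A. The miR-27 copies were also identical at 20 of 21 positions and differed by C19U. In both pairs the first 18 bases were the same, and reads were kept from a length of 15, so reads that end before position 19 cannot be assigned to 1 copy by sequence. Alignment allowed 1 mismatch, so a longer read of 1 copy can also align to the other. How such reads were divided is not given in the sources used here, and their part in the values below was not tested. miR-24-2-5p and miR-24-1-5p shared 17 of 22 positions, with the first difference A17U. Reads of this pair that end before position 17 cannot be assigned to 1 copy either. miR-27a-5p and miR-27b-5p were identical at 14 of the 22 positions compared, the first difference, G3A, fell within the seed, and their seeds therefore differed.

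The members together held 0.278% to 1.14% of the miRNA counts of a library, with medians of 0.357% and 0.558% in nonabstinent saline and morphine males and 0.941% and 0.866% in their abstinent counterparts. Levels are given as CPM, counts relative to the TMM-scaled library size, and the mature sequences have similar lengths. miR-27b-3p was the leading member with a median of 3791 CPM over all libraries, ahead of miR-27a-3p with 882 CPM in 25 of 25 libraries. miR-23a-3p (median 488 CPM), miR-23b-3p (396 CPM) and miR-24-3p (387 CPM) followed, and their order differed between groups. miR-23a-3p exceeded miR-23b-3p in 17 of 25 libraries, which were 3 of 7 in F0_SAL, 3 of 7 in F0_MOR, 5 of 5 in F0_ABS-SAL and 6 of 6 in F0_ABS-MOR. miR-23b-3p exceeded miR-24-3p in 5 of 7 libraries of each nonabstinent group, but in 2 of 5 abstinent saline and 1 of 6 abstinent morphine libraries. The 5p arms were lower. miR-24-2-5p had a median of 67.7 CPM, miR-27a-5p 39.0 CPM, miR-27b-5p 29.0 CPM and miR-24-1-5p 6.84 CPM. miR-24-2-5p was above miR-27a-5p in 22 of 25 libraries and miR-27a-5p above miR-27b-5p in 16 of 25. Whereas miR-27 was made up mainly of the 23b cluster copy, the 5p arm of miR-24 was made up mainly of the 24-2 copy, which exceeded the 24-1 copy in 25 of 25 libraries.

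**Figure D1:**
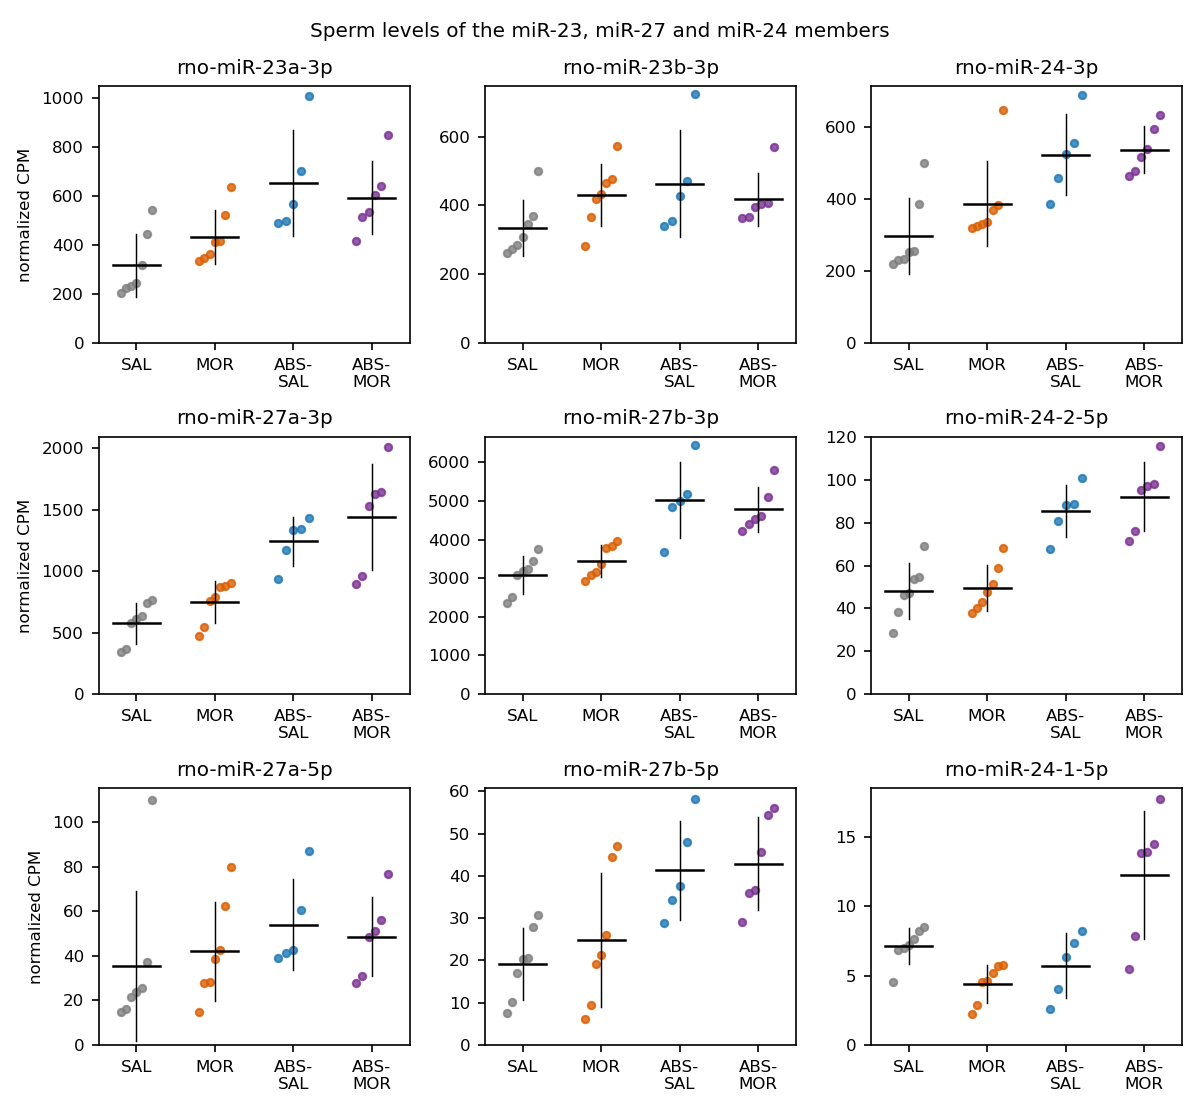
TMM-scaled CPM (vertical axes, each starting at 0) of the 9 tested members in each library of the 4 groups (F0_ prefix omitted), with 1 point a library, horizontal lines for group means and vertical lines for 1 SD. The miR-27a-3p points of the ABS-SAL group, at 933 to 1434 CPM, all lie above those of the SAL group, at 339 to 766 CPM.

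Collection timepoint was first compared in saline males (F0_ABS-SAL minus F0_SAL). A miRNA was called at a Benjamini-Hochberg adjusted p under 0.1, taken over all 317 miRNAs tested, and an absolute log2 fold change above 0.58. By this rule 6 of the 9 tested members rose at the abstinent timepoint and 0 fell. Among all miRNAs 33.1% were called, 22.4% as higher and 10.7% as lower. The median log2 fold change was 0.82 over the 9 members and 0.00 over all miRNAs. The members that rose were miR-23a-3p, miR-27a-3p and miR-24-2-5p of the 23a cluster, miR-27b-3p and miR-27b-5p of the 23b cluster, and the shared miR-24-3p.

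miR-27a-3p ranged from 339 to 766 CPM in F0_SAL (median 614) and was at 1333, 933, 1173, 1434 and 1345 CPM in libraries E, K, L, R and Y of F0_ABS-SAL. The groups did not overlap, which held for 1 of the 9 members and for 4.73% of all miRNAs in this direction (2.21% in the other, with 0 members). Its log2 fold change was 1.11 ± 0.22 (SE, adjusted p = 8.97e-04). The cluster partner miR-23a-3p ranged from 206 to 544 CPM in F0_SAL (median 247) and was at 569, 488, 1009, 702 and 498 CPM in F0_ABS-SAL in the same order of libraries. Here the groups overlapped, since 1 F0_SAL library, H at 544 CPM, lay above the 2 lowest abstinent libraries. The log2 fold change of miR-23a-3p was 1.04 ± 0.24 (SE, adjusted p = 0.00283). miR-24-2-5p, the 5p arm particular to this cluster, ranged from 28.5 to 69.4 CPM in F0_SAL (median 47.3) and was at 67.7, 81.0, 88.4, 101 and 88.9 CPM in F0_ABS-SAL. Only the highest F0_SAL library and the lowest F0_ABS-SAL library crossed, and the log2 fold change was 0.83 ± 0.21 (SE, adjusted p = 0.00446).

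In the 23b cluster the leading miRNA, miR-27b-3p, ranged from 2361 to 3759 CPM in F0_SAL (median 3175) and was at 5184, 3683, 4990, 6456 and 4859 CPM in F0_ABS-SAL. All but library K lay above every F0_SAL library. Its log2 fold change, 0.71 ± 0.16 (SE, adjusted p = 0.00195), was smaller than that of miR-27a-3p, a difference that is tested below as a ratio. Without library R it was 0.56 (adjusted p = 0.0189), under the fold change criterion, and the number of members called became 5. miR-23b-3p ranged from 261 to 499 CPM in F0_SAL (median 307) and was at 427, 356, 724, 470 and 340 CPM in F0_ABS-SAL. With a log2 fold change of 0.47 ± 0.21 (SE, adjusted p = 0.0805) miR-23b-3p missed the fold change criterion, and only library L was above all F0_SAL libraries. Without library L its log2 fold change was 0.20 (adjusted p = 0.433), and with the total count alone it was called at 0.84 (adjusted p = 0.00741).

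miR-24-3p, which either cluster can supply, ranged from 219 to 501 CPM in F0_SAL (median 253) and was at 387, 525.6, 689, 555 and 459 CPM in F0_ABS-SAL. The log2 fold change of miR-24-3p was 0.82 ± 0.21 (SE, adjusted p = 0.00701), with overlapping groups. Of the low arms, miR-27b-5p rose from a mean of 19.2 ± 8.47 CPM (SD, n = 7) to 41.4 ± 11.7 CPM (SD, n = 5), a log2 fold change of 1.11 ± 0.37 (SE, adjusted p = 0.0265). miR-27a-5p had a log2 fold change of 0.63 ± 0.41 (SE, adjusted p = 0.231), and library H stood at 110 CPM against 14.7 to 37.1 CPM in the other F0_SAL libraries. Without library H it was called, with a log2 fold change of 1.16 (adjusted p = 0.0118), and without library L of F0_ABS-SAL it was 0.38 (adjusted p = 0.503). miR-24-1-5p, at 4.51 to 8.51 CPM in F0_SAL and 2.63 to 8.25 CPM in F0_ABS-SAL, was the 1 member with a value below 0, with a log2 fold change of -0.32 ± 0.36 (SE, adjusted p = 0.503).

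The same timepoints were compared in morphine males (F0_ABS-MOR minus F0_MOR), where 3 of the 9 tested members rose and 0 fell. Of all miRNAs 21.1% were called, 11% as higher and 10.1% as lower. The median log2 fold change was 0.47 over the members and 0.00 over all miRNAs. The members that rose were miR-27a-3p, miR-24-2-5p and miR-24-1-5p, the last of which was the lone member below 0 in saline males.

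miR-27a-3p ranged from 475 to 908 CPM in F0_MOR (median 786) and from 897 to 2009 CPM in F0_ABS-MOR (median 1578). The groups crossed at library T of F0_MOR and library I of F0_ABS-MOR, and the log2 fold change was 0.95 ± 0.22 (SE, adjusted p = 0.00677). The study also listed miR-27a-3p, with miR-126a-3p and miR-200a-5p, among the leading miRNAs of both its timepoint comparisons, changed in the same direction. miR-24-2-5p ranged from 37.6 to 68.2 CPM in F0_MOR (median 47.9) and from 71.5 to 116 CPM in F0_ABS-MOR (median 96.2). These groups did not overlap, and neither did those of miR-27b-3p, so 2 of the 9 members did not overlap, as did 1.89% of all miRNAs in this direction and 1.58% in the other. The log2 fold change of miR-24-2-5p was 0.90 ± 0.20 (SE, adjusted p = 0.00631).

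miR-24-1-5p was counted 3 to 12 times in F0_MOR libraries and 13 to 34 times in F0_ABS-MOR libraries. Its level ranged from 2.26 to 5.81 CPM (median 4.59) and from 5.47 to 17.8 CPM (median 13.9), and library D of F0_ABS-MOR lay within the F0_MOR range. The log2 fold change was 1.43 ± 0.35 (SE, adjusted p = 0.00800), and it was 1.48 (adjusted p = 0.0209) with no filter on low counts. The counts behind miR-24-1-5p were the lowest of the tested members, and counting error is correspondingly larger.

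miR-27b-3p ranged from 2926 to 3972 CPM in F0_MOR (median 3375) and from 4234 to 5811 CPM in F0_ABS-MOR (median 4577). With a log2 fold change of 0.47 ± 0.15 (SE, adjusted p = 0.0272) it fell short of the fold change criterion, although the groups did not overlap. miR-24-3p (0.47 ± 0.21, adjusted p = 0.103) missed the criteria on both fold change and p. miR-27b-5p (0.81 ± 0.35, adjusted p = 0.102) missed that on p alone. miR-24-3p was called without library M of F0_MOR (0.64, adjusted p = 0.0187), and miR-27b-5p was called without library B, T, I, Q or S, at log2 fold changes from 0.86 to 1.03 and adjusted p from 0.0445 to 0.0983. miR-27b-5p was also called with DESeq2 (0.83, adjusted p = 0.0795), limma-voom, each other scaling or filter, and log2 total count as a covariate. With only the 2 groups compared in the model it was not called (0.84, adjusted p = 0.109). miR-24-3p was called with the total count alone, upper-quartile scaling and the covariate, but not with DESeq2 or limma-voom. miR-27b-3p was called with the total count alone (0.67, adjusted p = 0.00904) and the covariate (0.59, adjusted p = 0.00804). miR-23a-3p had a log2 fold change of 0.45 ± 0.23 (SE, adjusted p = 0.169), miR-27a-5p of 0.21 ± 0.39 (SE, adjusted p = 0.754) and miR-23b-3p of -0.04 ± 0.20 (SE, adjusted p = 0.893). Of these, miR-23a-3p was called with limma-voom (0.59, adjusted p = 0.0370) and the total count alone (0.64, adjusted p = 0.0896).

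**Figure D2:**
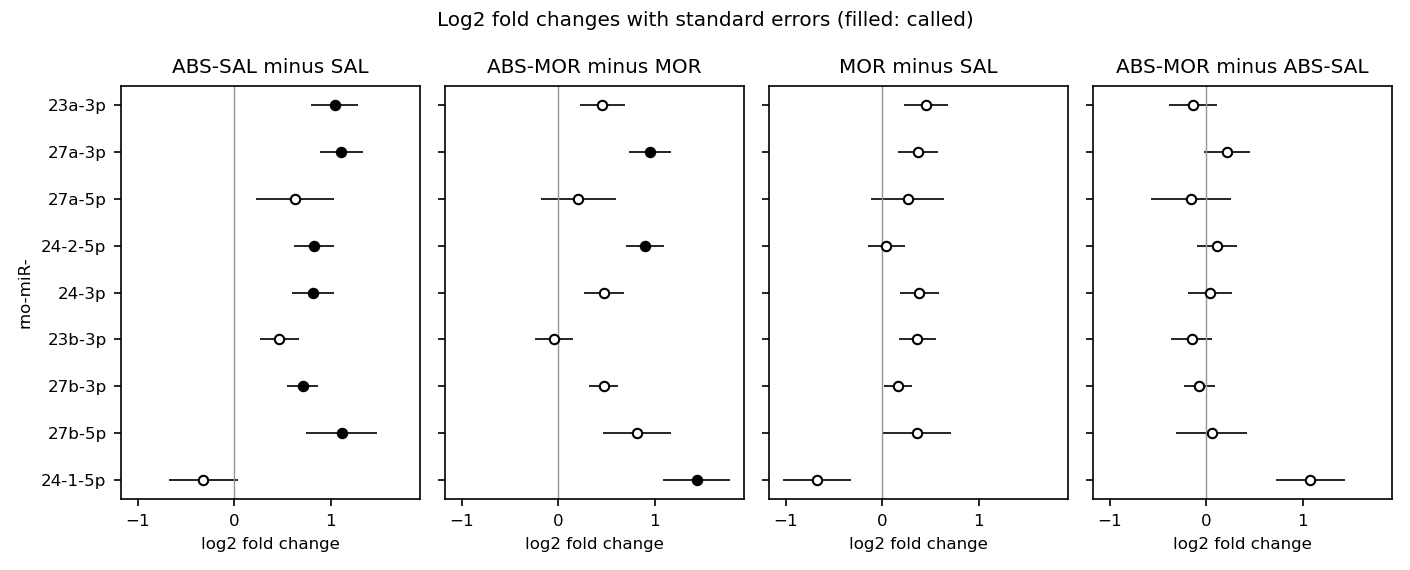
Log2 fold changes (horizontal axes) of the 9 tested members in the 4 pairwise comparisons, from edgeR, with lines of 1 SE on each side and filled points for called members. Filled points occur in the comparisons of timepoint alone, 6 in saline and 3 in morphine males, and miR-24-1-5p runs from -0.32 in the first panel to 1.43 in the second.

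Several markers of cells other than sperm rose between the timepoints along with the members. Of the endothelial list, 5 of 5 tested miRNAs were called higher in saline males and 3 of 5 in morphine males, and the endothelial miR-126a-3p had the smallest p of the list in both, at log2 fold changes of 1.25 and 0.88. The summed level of this list ranged from 737 to 1037 CPM in F0_SAL against 1199 to 3155 CPM in F0_ABS-SAL, and from 859 to 1106 CPM in F0_MOR against 1432 to 1742 CPM in F0_ABS-MOR. The highest sum was in library L, where miR-23a-3p, miR-23b-3p and miR-24-3p were also at the top of their group. For smooth muscle and fibroblasts, 6 of 7 miRNAs were called higher in saline males and 3 of 7 in morphine males, with sums of 14310 to 17969 CPM in F0_SAL against 19576 to 84583 CPM in F0_ABS-SAL, and 14345 to 19568 CPM in F0_MOR against 18248 to 38133 CPM in F0_ABS-MOR. Library R held the value of 84583 CPM and the highest miR-27a-3p and miR-27b-3p of its group. In F0_ABS-MOR, library Q held the highest sums of both lists, at 1742 and 38133 CPM. The same library was lowest of its group for miR-23a-3p (415 CPM) and miR-27b-3p (4234 CPM). Of 8 epididymal epithelial miRNAs, 6 and 4 were called higher in saline and morphine males, with sums of 6540 to 10783 CPM in F0_SAL against 8779 to 19438 CPM in F0_ABS-SAL, and 7481 to 11303 CPM in F0_MOR against 8836 to 17600 CPM in F0_ABS-MOR.

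The germ cell list moved the other way, with 5 of 12 tested miRNAs called lower in saline males and 1 of 12 in morphine males. Its sum was far above those of the other lists and ranged from 424304 to 770567 CPM in F0_SAL (median 554384) against 286796 to 412942 CPM in F0_ABS-SAL (median 342739). In morphine males it ranged from 350997 to 529872 CPM in F0_MOR against 198771 to 453085 CPM in F0_ABS-MOR. Of 6 leukocyte miRNAs, 1 was called higher in saline males, and 1 was called higher and 1 lower in morphine males, with sums from 1153 to 3056 CPM over all libraries. Of 3 erythroid miRNAs, 0 were called in saline males and 3 were called lower in morphine males, with sums from 308 to 2741 CPM. On the endothelial list miR-222-5p was at 0 in 10 of 25 libraries, and the 7 muscle and fibroblast markers were counted in every library. On the germ cell list miR-449c-5p was at 0 in 24 libraries, on the epithelial list miR-141-5p in 6, and on the leukocyte list miR-155-5p in 1. The part of other cell types in the members' rise was not tested. In such bulk libraries fewer cells of a type and less RNA per cell cannot be told apart.

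The direction of the timepoint result was also read under other scalings. With the total count alone in place of TMM factors, the median log2 fold change of all miRNAs moved to 0.39 in saline and 0.18 in morphine males, the called miRNAs became 110 higher and 1 lower in saline males against 71 and 34 with TMM, and 57 higher and 14 lower in morphine males against 35 and 32. The members called higher were then 7 of 9 in both treatments. Relative to the shifted median, miR-24-1-5p in saline males (log2 fold change 0.06) and miR-23b-3p in morphine males (0.14) remained below the median miRNA, although their sign had turned.

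The ratio of 2 copies within a library needs no scaling between libraries, and was used to contrast the clusters directly. Each ratio is the log2 of raw counts with 0.5 added to each, the 23a cluster copy first, compared by two-sided exact permutation tests over libraries and adjusted over 24 tests (6 ratios in 4 comparisons), with an adjusted p under 0.05 as the criterion. Comparisons that share a group, such as F0_ABS-SAL minus F0_SAL and F0_MOR minus F0_SAL, use the same libraries.

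The miR-23 balance was shifted towards the 23a copy at the abstinent timepoint in both treatments, although both calls could be lost by leaving out 1 library. In F0_SAL the log2 ratio of miR-23a-3p to miR-23b-3p ranged from -0.62 to 0.27 (median -0.08), and in F0_ABS-SAL it was 0.41, 0.46, 0.48, 0.58 and 0.55 in libraries E, K, L, R and Y. Every abstinent saline library was above every F0_SAL library, with a difference of 0.63 ± 0.14 (SE), or 1.55-fold (exact permutation p = 0.00505, adjusted p = 0.0303). Leaving out any 1 of the 5 F0_ABS-SAL libraries took the adjusted exact permutation p to 0.0582, past the criterion. Fewer libraries then remain, and the smallest p the test allows is larger. The difference over all libraries left out stayed between 0.55 and 0.70. In counts, the 23a copy was 47.7% ± 6.1 (SD, n = 7) of miR-23-3p in saline males and 58.5% ± 1.2 (SD, n = 5) in abstinent saline males.

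In morphine males the miR-23 ratio ranged from -0.20 to 0.24 (median -0.07) in F0_MOR and from 0.07 to 0.66 (median 0.56) in F0_ABS-MOR. Library Q, at 0.07, was the 1 abstinent library within the F0_MOR range, and the next was at 0.50. The difference was 0.49 ± 0.11 (SE), or 1.40-fold (exact permutation p = 0.00408, adjusted p = 0.0303). Without library B or G of F0_MOR the adjusted exact permutation p was 0.0519 and the call was lost, with differences of 0.45 and 0.47. Treatment differences of this ratio were 0.14 ± 0.15 (SE, adjusted exact permutation p = 0.590) between F0_MOR and F0_SAL and -0.01 ± 0.09 (SE, adjusted exact permutation p = 0.985) between the abstinent groups.

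miR-27 moved in the same direction in saline males. The log2 ratio of miR-27a-3p to miR-27b-3p ranged from -2.80 to -2.17 (median -2.35) in F0_SAL and was -1.96, -1.98, -2.09, -2.17 and -1.85 in libraries E, K, L, R and Y of F0_ABS-SAL. The groups touched without overlapping, with library R at the level of the highest F0_SAL library, P. The difference was 0.45 ± 0.11 (SE), or 1.37-fold (exact permutation p = 0.00505, adjusted p = 0.0303), and the miR-27a share rose from 15.5% ± 2.1 (SD, n = 7) to 19.9% ± 1.3 (SD, n = 5). This call too was lost without any 1 of the 5 F0_ABS-SAL libraries (adjusted exact permutation p from 0.0559 to 0.0582), at differences from 0.41 to 0.49. In morphine males the ratio ranged from -2.62 to -1.87 in F0_MOR and from -2.36 to -1.38 in F0_ABS-MOR. A difference of similar size, 0.46 ± 0.20 (SE), did not pass there (exact permutation p = 0.0414, adjusted p = 0.166), with libraries I and J of F0_ABS-MOR inside the F0_MOR range. Library Q, lowest for miR-23, had the highest miR-27 ratio of its group. Treatment differences of the miR-27 ratio were 0.22 ± 0.14 (SE) and 0.23 ± 0.17 (SE) at the nonabstinent and abstinent timepoints, both with an adjusted exact permutation p of 0.416.

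The 5p arms of miR-24 gave a different pattern across treatments. In F0_SAL the log2 ratio of miR-24-2-5p to miR-24-1-5p ranged from 1.98 to 3.23 (median 2.62), and in F0_ABS-SAL it was 3.36, 3.27, 4.99, 4.57 and 3.57 in libraries E, K, L, R and Y. Again the groups did not overlap, with a difference of 1.27 ± 0.38 (SE), or 2.42-fold (exact permutation p = 0.00126, the smallest these group sizes allow, adjusted p = 0.0303). Without library L of F0_ABS-SAL the difference was 1.01 and the call was lost (adjusted exact permutation p = 0.0582). In morphine males the ratio ranged from 2.92 to 4.29 (median 3.30) in F0_MOR and from 2.35 to 4.35 (median 2.74) in F0_ABS-MOR. Libraries I, Q, S and X of F0_ABS-MOR lay below every F0_MOR library, and library D lay above every one. The difference was -0.44 ± 0.36 (SE, adjusted exact permutation p = 0.416), and it stayed between -0.71 and -0.29 over all libraries left out.

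Between treatments at the nonabstinent timepoint the miR-24 ratio was 0.74 ± 0.25 (SE) higher in F0_MOR than in F0_SAL, or 1.67-fold (exact permutation p = 0.00932, adjusted p = 0.0448), with overlapping groups. Leaving out library F, H, O, V, W, B, G, M or U in turn took the adjusted p above 0.05, and over all 14 libraries left out the difference stayed between 0.59 and 0.83 with adjusted p from 0.0312 to 0.103. In the abstinent groups the difference had the opposite sign, -0.97 ± 0.46 (SE, exact permutation p = 0.0758, adjusted p = 0.260), and it passed without library D of F0_ABS-MOR (-1.25, adjusted exact permutation p = 0.0373). The change of the treatment difference between timepoints was 1.71 (exact permutation of treatment within timepoint, p = 0.00291, adjusted over 6 ratios p = 0.0175), a test chosen after the pairwise values had been seen. Its null is no treatment difference at either timepoint, so the p does not test the change alone. For the other 5 ratios this change had an adjusted exact permutation p of 0.880 or more. The ratio rests on 3 to 34 counts of miR-24-1-5p a library against 41 to 278 of miR-24-2-5p.

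**Figure D3:**
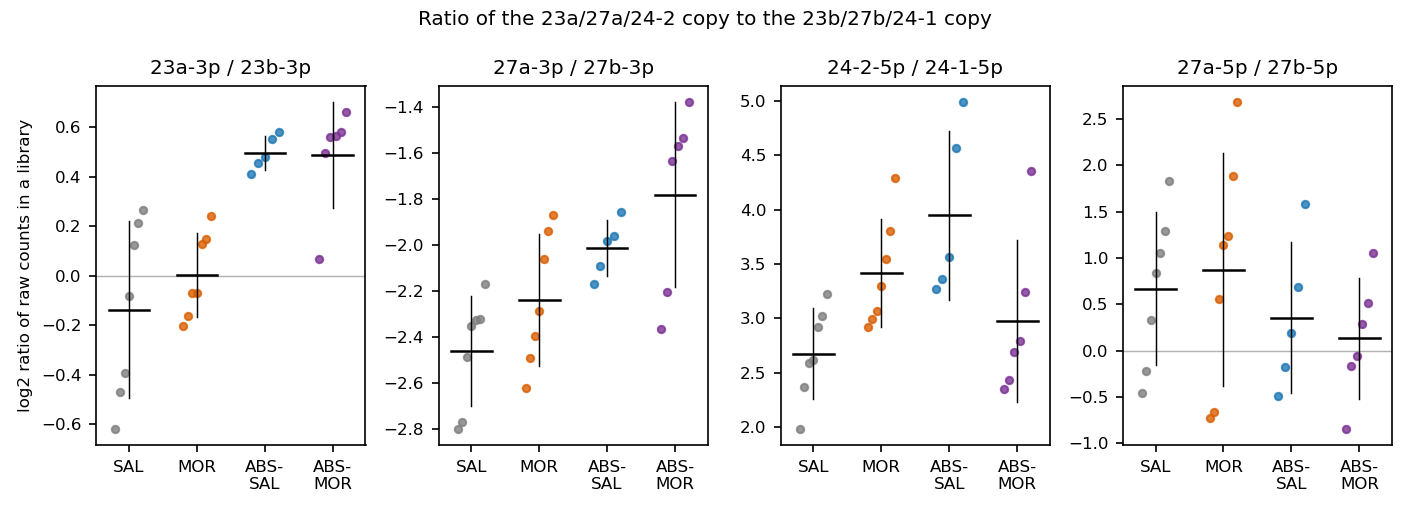
Log2 ratio of raw counts of the 23a cluster copy to the 23b cluster copy in each library (vertical axes, which differ between panels), with group means and 1 SD as lines. Abstinent saline libraries lie above all saline libraries for the first 3 ratios. For the miR-24 ratio, abstinent morphine libraries, at 2.35 to 4.35, extend below and above the morphine libraries, at 2.92 to 4.29.

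Passenger arms of miR-27 showed no called difference in any ratio. miR-27a-5p made up 60.8% ± 13.3 (SD, n = 7) of the 5p arms in F0_SAL and 63.0% ± 19.1 (SD, n = 7) in F0_MOR, against 55.7% ± 13.2 (SD, n = 5) and 52.2% ± 10.9 (SD, n = 6) in their abstinent counterparts. The 5p arm was 3.45% to 5.78% of all miR-27a counts as a group mean and 0.606% to 0.882% of all miR-27b counts. Across these 3 ratios and 4 comparisons the smallest adjusted exact permutation p was 0.416. Libraries of a group differed widely here, from 2.27% to 15.9% for miR-27a-5p in F0_SAL.

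Summed over the arms that belong to 1 cluster, the 23a cluster was at 978 ± 273 CPM (SD, n = 7) in saline and 1271 ± 196 CPM (SD, n = 7) in morphine males, and at 2036 ± 323 CPM (SD, n = 5) and 2178 ± 425 CPM (SD, n = 6) in the corresponding abstinent groups. For the 23b cluster the sums were 3444 ± 512, 3911 ± 485, 5545 ± 1034 and 5259 ± 579 CPM in the same order. The 23a cluster thereby supplied 21.8% ± 2.9, 24.5% ± 2.0, 27.0% ± 1.6 and 29.1% ± 3.1 of the counts of both. These sums are a description and were not tested. miR-24-3p is left out of them since its sequence does not tell the clusters apart.

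Morphine was compared with saline at each timepoint, and edgeR called 0 members in either comparison and 0% of all miRNAs. At the nonabstinent timepoint this differs from the study, which used DESeq2 with the same criteria. The source of that difference was not tested. The study called rno-miR-150-5p, which is not a member, between F0_MOR and F0_SAL, and no miRNA between the abstinent groups. At the nonabstinent timepoint 8 of 9 members had a log2 fold change above 0, from 0.04 for miR-24-2-5p to 0.45 ± 0.23 (SE, adjusted p = 0.623) for miR-23a-3p, and miR-24-1-5p was at -0.68 ± 0.35 (SE, adjusted p = 0.623). The median log2 fold change was 0.36 over the members and 0.06 over all miRNAs. With upper-quartile scaling 7 members were above 0. No member had an unadjusted edgeR p under 0.05 (0 of 9, against 23 of 317 miRNAs). miR-27a-3p (0.37 ± 0.21), miR-24-3p (0.38 ± 0.20) and miR-23b-3p (0.36 ± 0.19) had overlapping groups, as had the remaining members.

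At the abstinent timepoint 5 of 9 members had a log2 fold change above 0, and all but miR-24-1-5p were between -0.16 and 0.22. Levels of miR-24-1-5p were 6.35, 8.25, 2.63, 4.01 and 7.35 CPM in libraries E, K, L, R and Y of F0_ABS-SAL, and 5.47 to 17.8 CPM in F0_ABS-MOR. Its log2 fold change of 1.08 ± 0.36 (SE, unadjusted p = 0.00533, adjusted p = 1.00) had the smallest unadjusted p of the 317 miRNAs, of which 4 were under 0.05. In the interaction, the treatment difference of nonabstinent minus that of abstinent males, miR-24-1-5p again had the smallest p, with a log2 value of -1.75 ± 0.50 (SE, unadjusted p = 0.00147, adjusted p = 0.467). There too 0 miRNAs were called by edgeR, 0% of those tested, while 10 were under 0.05 unadjusted, 1 of them a member. DESeq2 also called 0 members in the treatment comparisons and the interaction.

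From library to library, the 3p copies of miR-23 and of miR-27 varied together more closely than miR-23 and miR-27 of 1 cluster did. Pearson's r of log2 CPM was computed over 25 libraries after group means were removed, and is given as a description. Across clusters, r was 0.83 between miR-23a-3p and miR-23b-3p and 0.74 between miR-27a-3p and miR-27b-3p, pairs that share their first 18 bases. Within clusters, r was 0.09 between miR-23a-3p and miR-27a-3p and 0.23 between miR-23b-3p and miR-27b-3p. miR-24-3p varied with miR-23a-3p (0.77) and miR-23b-3p (0.64) more closely than with miR-27a-3p (0.16) or miR-27b-3p (0.38), whereas miR-24-2-5p was closer to miR-27a-3p (0.67) than to miR-23a-3p (0.43). The arms of the miR-27a hairpin had an r of -0.02. All points share the library, its depth and its scaling.

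**Figure D4:**
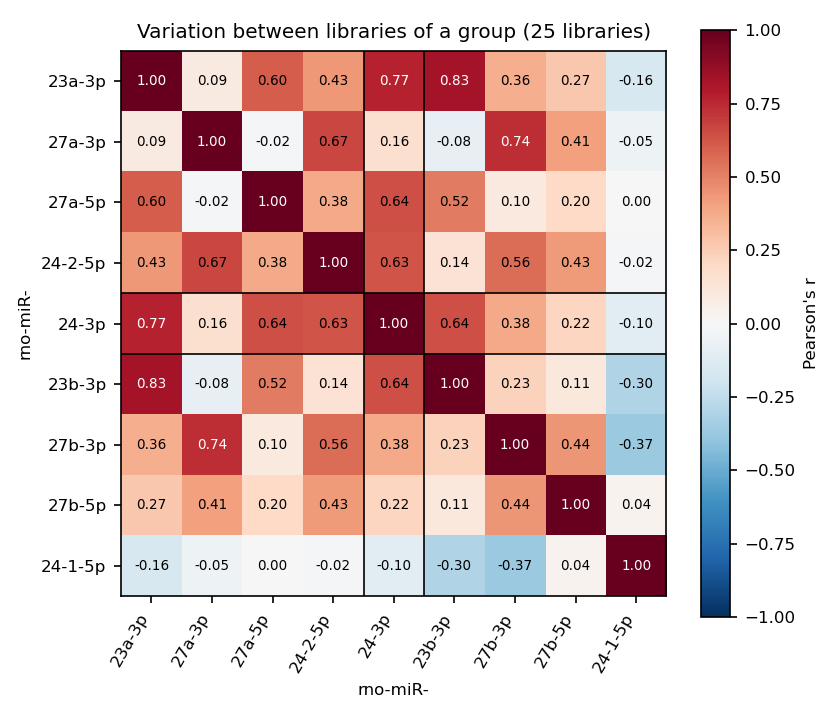
Pearson's r (colour and number) between the log2 CPM of each pair of tested members over 25 libraries after group means were removed, with lines separating the 23a cluster, miR-24-3p and the 23b cluster. The copies of miR-23 (0.83) and of miR-27 (0.74) have the highest values across the clusters, and miR-24-1-5p is at or near 0 or below with every other member.

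The miRNAs outside the family that varied most like its members differed between miR-23, miR-24 and miR-27. Among 308 other tested miRNAs and on the same measure, miR-26a-5p (r = 0.90), miR-221-3p (0.82) and miR-10a-3p (0.79) were most like miR-27a-3p. For miR-27b-3p these were miR-221-3p (0.83), miR-1b (0.70) and let-7i-5p (0.67). miR-23a-3p was most like miR-199a-5p (0.81), miR-199a-3p (0.80) and miR-150-5p (0.79), and miR-24-3p like miR-150-5p (0.88), miR-199a-3p (0.85) and miR-100-5p (0.85). miR-221-3p is on the endothelial list, both arms of miR-199a are on the smooth muscle and fibroblast list, and miR-150-5p is on the leukocyte list. miR-23b-3p (miR-351-5p, 0.72), miR-24-2-5p (miR-152-3p, 0.76), miR-27a-5p (miR-100-5p, 0.75) and miR-27b-5p (miR-152-3p, 0.68) had lower best values, and the lowest was that of miR-24-1-5p (miR-463-5p, 0.58).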

How the data were processed

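The authors prepared NEBNext small RNA libraries from sperm RNA, sequenced them on an Illumina HiSeq and used the forward reads. With sRNAbench they trimmed adaptors, aligned reads to the rat genome (rn6 in the submitters' processing notes) with a seed of 20 bases and 1 mismatch, and annotated them to miRBase. Settings kept reads of at least 15 bases seen at least 2 times. The deposited values are raw counts of reads per mature miRNA without normalization, whole numbers of which none was 1. Counts per ncRNA transcript were not used here. Reads without molecular identifiers are not independent molecules.

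Counts were analysed in R 4.3.3 with the quasi-likelihood test of edgeR 4.0.16, TMM factors (0.70 to 1.26), edgeR's filter on low counts and 1 model with the 4 groups. Adjusted p-values are Benjamini-Hochberg values over the 317 miRNAs tested. The study used DESeq2 with the same groups and the same criteria, and DESeq2 1.42.0 and limma 3.58.1 were run as alternatives. SEs of edgeR values are approximate (absolute log2 fold change over the root of F). Ratios were tested in Python 3.11.15 with exact permutations of the difference in means. Both tests were checked on simulated data.

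The members are always named. Other miRNAs are named where they are among the 3 most like a member, share its seed, or have the smallest p of a marker list. Members and marker lists were chosen with earlier results of these data known. Libraries were assigned to groups only, and p-values measure the spread between them. rno-miR-486 of the erythroid list was not analysed here. Alternatives were other scalings, filters, tools, thresholds, added counts, a depth covariate and leaving out each library.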

Additional observations from a re-analysis of the deposited data

Results flagged for a closer look

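In 4 of 60 sets of values checked, 1 library stood apart from the rest of its group by Dixon's criterion, against about 3 by chance. Library J of F0_ABS-MOR was highest for miR-23b-3p, at a log2 CPM of 9.16 with the next library at 8.68. Library M of F0_MOR was highest for miR-24-3p, at a log2 CPM of 9.34 with the next at 8.59, and without it miR-24-3p was called between the morphine timepoints (log2 fold change 0.64, adjusted p = 0.0187). Library C of F0_SAL was lowest for miR-24-1-5p, at a log2 CPM of 2.47 with the next at 2.98, which rests on a count of 5. Library Q of F0_ABS-MOR was lowest for the log2 ratio of miR-23a-3p to miR-23b-3p, at 0.067 with the next at 0.50.

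The treatment difference of the log2 ratio of miR-24-2-5p to miR-24-1-5p had opposite signs at the 2 timepoints. Morphine minus saline was 0.74 in nonabstinent and -0.97 in abstinent males, a change of 1.71 (exact permutation of treatment within timepoint, p = 0.00291, adjusted p = 0.0175 over 6 ratios). The null of this test is no treatment difference at either timepoint, so the p does not test the change alone. This test was chosen after the pairwise values had been seen, and the edgeR interaction of miR-24-1-5p itself was not called (adjusted p = 0.467). The counts of miR-24-1-5p behind it were 3 to 34 a library, and the part of counting error was not tested.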

How the results depend on the processing

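No paired analysis was possible because the columns carry no replicate numbers. The 6 members called in saline males became 5 to 7 when each library was left out and 6 or 7 under the other alternatives run. The 3 called in morphine males became 4 with DESeq2 size factors, 5 with limma-voom, 7 with the total count alone and 5 with upper-quartile scaling. They became 6 with log2 total count as a covariate, and 3 to 4 when each library was left out. DESeq2 and the fit with no filter called miR-27b-5p in addition to these 3. No member was called in either treatment comparison or the interaction under any alternative run. With the total count alone the F0_ABS-MOR means became 5400 CPM for miR-27b-3p, 608 CPM for miR-24-3p and 5933 CPM for the summed 23b cluster. miR-24-1-5p could not be fitted with at least 10 counts in every library.

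Values near 0 changed sign. miR-24-1-5p in saline males became 0.055 with the total count alone. miR-23b-3p in morphine males became 0.032 with limma-voom, 0.14 with the total count alone, 0.055 with upper-quartile scaling, 0.0083 with no filter, 0.013 with at least 10 counts and 0.0030 with the depth covariate. Between the nonabstinent groups miR-24-2-5p became -0.033 with upper-quartile scaling, -0.017 with no filter and -0.0100 with the depth covariate. Between the abstinent groups limma-voom gave 0.039 for miR-27b-3p, 0.048 for miR-23b-3p and 0.087 for miR-23a-3p, upper-quartile scaling 0.0019 for miR-27b-3p, and the depth covariate -0.018 for miR-24-3p and -0.029 for miR-27b-5p. The interaction of miR-24-2-5p became 0.089 with the total count alone. The cause was not tested.

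Leaving out each library changed the sign within these ranges: in morphine timepoints -0.16 to 0.036 for miR-23b-3p, between nonabstinent groups -0.089 to 0.12 for miR-24-2-5p, and between abstinent groups -0.16 to 0.0013 for miR-27b-3p, -0.26 to 0.081 for miR-23b-3p, -0.27 to 0.084 for miR-23a-3p, -0.020 to 0.16 for miR-24-3p, -0.35 to 0.084 for miR-27a-5p and -0.039 to 0.24 for miR-27b-5p. The miR-23 ratio ranged from 0.55 to 0.70 between saline timepoints, 0.45 to 0.57 between morphine timepoints and -0.042 to 0.077 between abstinent groups. Its adjusted p exceeded 0.05 without library B or G in morphine males (0.0519 in both). The miR-27 ratio ranged from 0.39 to 0.50 between saline timepoints. Both saline calls were lost without any 1 of the 5 F0_ABS-SAL libraries, with adjusted p from 0.0559 to 0.0582, where 4 libraries remain and the smallest p the test allows is larger. The miR-24 ratio ranged from 1.01 to 1.44 between saline timepoints (adjusted p = 0.0582 without library L), 0.59 to 0.83 between nonabstinent and -1.25 to -0.71 between abstinent groups. With 2 added to each count its nonabstinent difference was 0.61 (adjusted p = 0.0503). Among passenger arms, the miR-27a-5p to miR-27b-5p ratio ranged from -0.094 to 0.47 between nonabstinent and -0.44 to 0.082 between abstinent groups. The share of the 5p arm, as a log2 ratio to 3p, ranged for miR-27a from -0.48 to 0.043 between saline timepoints and -0.21 to 0.33 between nonabstinent groups, and for miR-27b from -0.15 to 0.31 between nonabstinent and -0.0045 to 0.29 between abstinent groups. Depth limits miR-24-1-5p most, at 3 to 34 counts a library.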
